A study of Rattus norvegicus with 8 samples.

Results

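The 7 genes described here belong to the major histocompatibility complex (MHC) and to antigen presentation: B2m, Cd74, RT1-Da, RT1-Ba, RT1-Bb, Tap1 and Tap2. They were chosen by name out of 18365 named genes on a rat whole-genome array, and 13 of its 41012 probes carried their names. Their RNA was measured in pyramidal neurons of the CA3 field of the hippocampus from male Sprague-Dawley rats, whose age is not given in the sources used here. Neurons were picked by laser capture from 10 µm frozen brain sections stained with Fluoro-Jade, a dye taken up by degenerating neurons. There were 4 groups of 2 arrays: Fluoro-Jade-positive (dying) and neighbouring Fluoro-Jade-negative (surviving) neurons 24 h after a moderate fluid percussion injury, neurons 24 h after a sham injury, and neurons of naive rats that had no treatment. Each surviving or dying pool held about 600 neurons from several rats, and the sources used here do not tie pools to rats, so both kinds of pool may come from the same animals.

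MHC class I molecules display peptides from inside the cell to CD8 T cells. B2m is their light chain, and Tap1 and Tap2 form the transporter that carries peptides from the cytosol into the endoplasmic reticulum, where class I heavy chains are loaded. Class II molecules display peptides from endocytosed proteins to CD4 T cells. RT1-Da is the alpha chain of the rat RT1-D molecule, RT1-Ba and RT1-Bb are the alpha and beta chains of RT1-B, and Cd74, the invariant chain, guides class II molecules to the compartment where they are loaded. In the brain, class II is known mainly from activated microglia, macrophages and infiltrating leukocytes, class I transcripts are also known from hippocampal neurons, and interferon gamma induces both pathways.

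Levels are given as log2 of a probe's signal over the median signal of its array, so that 0 is the array's median probe. The median signal was 27.2 and 22.7 intensity units on the naive arrays, 16.5 and 16.4 on the sham arrays, 52.2 and 48.2 on the surviving arrays, and 19.2 and 52.6 on the dying arrays. Between 20191 and 29345 probes per array were marked well above background. Naive and sham arrays shared 1 slide and surviving and dying arrays the other, so that for a comparison with sham neurons the slide and the group cannot be told apart. Dying replicate 1 and naive replicate 1 stood apart from their partners. Replicates differed by a median of 0.78 on the log2 scale in dying neurons and 0.62 in naive neurons, against 0.32 in sham and 0.33 in surviving neurons. That mark was given to 6 of the 13 member probes on each of the 8 arrays, to 3 on 1 array and to 1 on none.

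All 7 genes had an entry in the RefSeq promoter table (build GRCr8). In its gene order on chromosome 20, RT1-Da, RT1-Db2, Arrb2-ps, RT1-Db1, RT1-Ba, RT1-Bb, RT1-DOb, Tap2, Psmb8, Tap1 and Psmb9 follow one another, while B2m lies on chromosome 3 and Cd74 on chromosome 18. The promoters of 2 class II genes and of both transporter genes are shown because these members had higher mean levels in both injured groups than in sham neurons and differ in the motifs they hold. Each sequence runs 5′ to 3′ on the gene's strand over the 250 bases before its start, at chr20:4515165-4515414 (plus strand) for RT1-Da, chr20:4604119-4604368 (minus) for RT1-Bb, chr20:4668544-4668793 (minus) for Tap1 and chr20:4652297-4652546 (minus) for Tap2. Capitals mark ATTGG, the core of the class II Y box, and GAAANNGAA, the core of the interferon-stimulated response element, on either strand.
RT1-Da: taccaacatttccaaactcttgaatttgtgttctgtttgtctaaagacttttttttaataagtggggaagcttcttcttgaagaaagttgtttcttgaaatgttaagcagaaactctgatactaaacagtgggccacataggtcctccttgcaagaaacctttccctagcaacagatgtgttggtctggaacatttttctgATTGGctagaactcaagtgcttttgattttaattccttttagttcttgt
RT1-Bb: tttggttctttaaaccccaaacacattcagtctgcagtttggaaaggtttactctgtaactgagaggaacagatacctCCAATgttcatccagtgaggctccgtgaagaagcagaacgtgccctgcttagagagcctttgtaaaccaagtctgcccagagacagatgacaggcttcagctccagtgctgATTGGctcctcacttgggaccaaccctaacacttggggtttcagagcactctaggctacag
Tap1: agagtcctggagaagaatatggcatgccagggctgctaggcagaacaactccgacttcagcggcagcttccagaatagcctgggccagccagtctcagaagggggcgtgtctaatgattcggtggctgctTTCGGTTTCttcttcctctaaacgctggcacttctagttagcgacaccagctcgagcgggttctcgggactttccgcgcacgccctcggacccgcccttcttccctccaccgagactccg
Tap2: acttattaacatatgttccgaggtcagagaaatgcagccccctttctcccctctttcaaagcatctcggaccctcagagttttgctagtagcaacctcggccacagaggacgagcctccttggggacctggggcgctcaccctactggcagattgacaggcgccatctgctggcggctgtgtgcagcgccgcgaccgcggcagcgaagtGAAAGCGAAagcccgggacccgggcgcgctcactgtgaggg
ATTGG was present in B2m, Cd74, RT1-Da, RT1-Ba and RT1-Bb, which is 5 of 7 members, and in 34.0% of the 33469 promoters of the table. It began 49 bases before the start in RT1-Da, 43 in RT1-Ba, 64 in B2m, 61 and 172 in RT1-Bb, and 189 in Cd74. GAAANNGAA was present in B2m, Tap1 and Tap2, at 150, 120 and 41 bases before the start, and in 8.12% of all promoters. The letters of the cyclic AMP response element, TGACGTCA, stood in RT1-Ba alone among the members (1.59% of all promoters), and TTCNNNGAA, the core of the gamma-activated site, stood in none of them (7.67% of all promoters). A match describes letters and is not evidence of binding.

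Cd74 (probe A_44_P549494) had its highest values in dying neurons. It stood at 6.22 and 5.85 in dying, 4.36 and 4.23 in surviving, 1.81 and 3.08 in sham, and 0.00 and 4.33 in naive neurons. Both dying arrays lay above all other arrays, both surviving arrays lay above both sham arrays, and the naive pair spanned almost the whole range below the dying arrays. The means were 6.03 ± 0.26 in dying, 4.30 ± 0.09 in surviving, 2.45 ± 0.90 in sham and 2.17 ± 3.07 in naive neurons (SD, n = 2 here and throughout), and the last pair did not differ beyond its spread.

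RT1-Da (A_44_P991532) followed the same order, with 4.64 and 3.84 in dying, 2.84 and 2.78 in surviving, -0.14 and 1.81 in sham, and -3.01 and 2.41 in naive neurons. The first naive value was not well above background, and the other lay between the sham and the surviving values. RT1-Bb (A_44_P500803) read 2.55 and 2.25 in dying, 1.57 and 1.64 in surviving, 1.48 and 0.80 in sham, and -0.10 and 1.30 in naive neurons. Its groups did not overlap among dying, surviving and sham neurons, although the means of surviving (1.60 ± 0.05) and sham neurons (1.14 ± 0.48) differed by less than the SD of the sham pair. The other class II probes were dim. RT1-Ba was well above background on dying replicate 2 only, at -1.13 with probe A_44_P128248, and on no array with A_44_P194167. Second probes for RT1-Da (A_44_P367688) and RT1-Bb (A_44_P552452) passed that mark on naive replicate 2 only, at 1.74 and 1.05, so that the brighter and the dimmer probe of these genes gave different patterns.

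Tap1 (A_44_P451916) was above background in injured animals only. In surviving neurons it read 0.65 and 0.44 and in dying neurons 0.77 and 1.54, and all of these were well above background. They were -1.64 and -1.59 in sham and -2.74 and -2.75 in naive neurons, none of which was well above background. Tap2 (A_42_P797381), its partner in the transporter, was the member with its highest level in surviving neurons: 2.54 and 2.41, against 2.16 and 1.47 in dying, 1.13 and 1.22 in sham, and 0.78 and 1.11 in naive neurons. Its 4 groups did not overlap, with means of 2.47 ± 0.09, 1.81 ± 0.49, 1.18 ± 0.06 and 0.94 ± 0.23, and sham and naive neurons did not differ beyond their spread.

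B2m, the light chain common to all class I molecules, was bright everywhere, and its 4 probes did not share an order. Probes A_43_P11442 and A_44_P214040 had their highest means in dying neurons, 8.45 ± 0.59 and 9.23 ± 0.58, followed by surviving (8.03 ± 0.18 and 8.93 ± 0.13), sham (7.81 ± 0.32 and 8.62 ± 0.31) and naive neurons (7.62 ± 0.53 and 8.43 ± 0.45). Unlike these 2, probes A_44_P122632 and A_44_P535612 were matched by gene name only and had no match in the RefSeq table. Probe A_44_P122632 was highest in sham (8.39 ± 0.46) and lowest in surviving neurons (7.42 ± 0.18). Probe A_44_P535612 ranged from 8.63 to 9.46 and had no usable spot on dying replicate 1. With the first 2 probes, neighbouring groups in this order did not differ beyond the spread of their replicates, or barely so for surviving against sham neurons with A_44_P214040 (0.32).

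**Figure D1:**
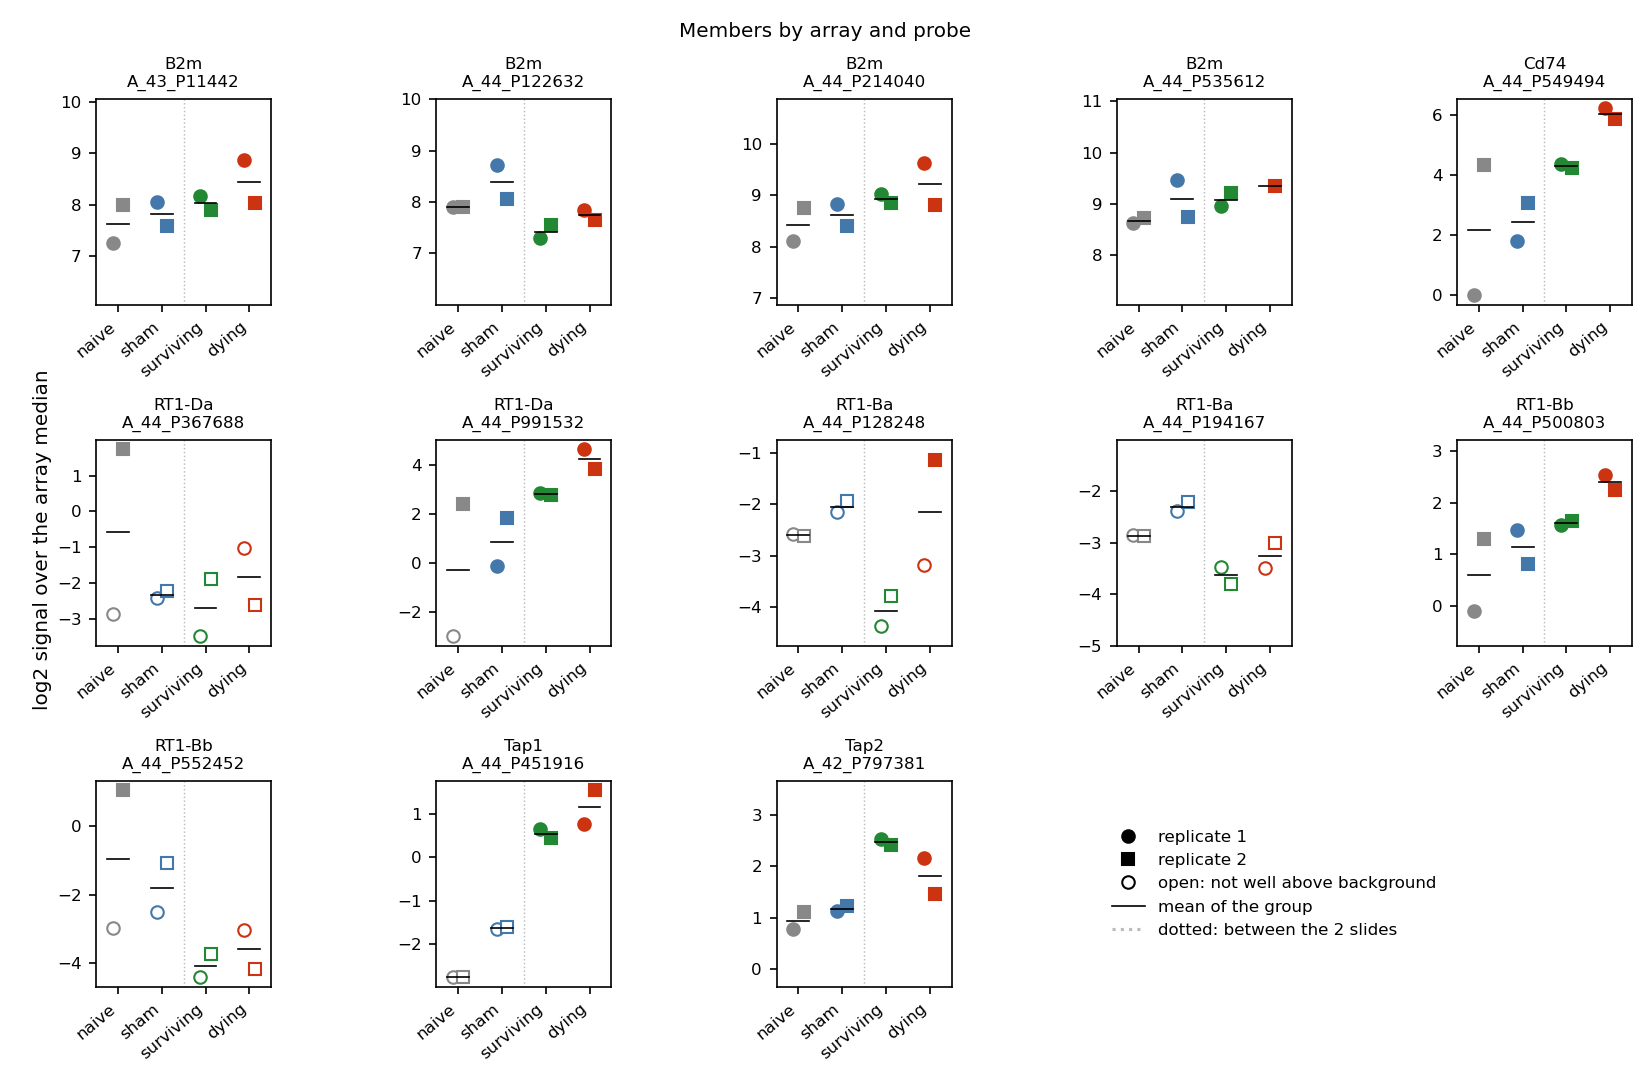
Level of each of the 13 member probes on each array, as log2 of the signal over the array median, by group; circles are replicate 1, squares replicate 2, open symbols are not well above background, lines are group means, and the dotted line parts the 2 slides. Cd74, RT1-Da (A_44_P991532) and RT1-Bb (A_44_P500803) were highest on the dying arrays, Tap1 was well above background only on surviving and dying arrays, and Tap2 was highest on the surviving arrays.

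Dying neurons were compared with sham neurons to ask what 24 h of injury brought in cells that degenerate. Cd74 and Tap1 were higher in dying neurons and passed the test, and no member passed in the other direction. Cd74 rose by 3.59 (SE 1.19; 95% interval 0.84 to 6.33), which is 12-fold, with a limma adjusted p of 0.0409. Tap1 rose by 2.77 (SE 0.45; 1.73 to 3.80; limma adjusted p = 0.00355). Because Tap1 was at background in sham neurons its fold is a lower bound, at least 2.60-fold, taken against the higher of each sham array's lowest well-above-background signal and the probe's own signal. Both dying arrays stood above both sham arrays for each gene. In these bulk pools, fewer cells of a type and less RNA per cell cannot be told apart.

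RT1-Da differed by 3.41 (SE 1.50; -0.03 to 6.85; limma adjusted p = 0.0948) and RT1-Bb by 1.26 (SE 0.56; -0.04 to 2.55; 0.0997), and neither passed although their arrays did not overlap. The SE of each comparison draws on the spread of all 4 groups. The SD of the naive pair was 3.84 for RT1-Da, 0.99 for RT1-Bb and 3.07 for Cd74, the largest of the groups for each. Tap2 differed by 0.64 (limma adjusted p = 0.266) and the B2m probes by -0.64 to 0.63. In all, 9 probes of 6 genes were tested and 2 passed, while 44.1% of the 25623 probes tested passed (15.1% were higher in dying neurons, and 7426 probes were lower). At an unadjusted p under 0.05 there were 2 member probes, against 54.3% of all. Groups did not overlap for 5 member probes in the upward direction, against 30.8% of all probes, and for 1 in the downward direction, against 45.3%. The median difference was 0.64 over the member probes and -0.46 over all probes tested. Tap1 and 1 B2m probe were tested on the strength of 1 group, the latter with a value from 1 dying array only.

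The call for Cd74 rested on every array: without any 1 of the dying or sham arrays the difference was 2.95 to 4.22 and the limma adjusted p 0.0812 to 0.195. Without each array in turn the Tap1 difference was 2.38 to 3.15, taken against sham values at background (at least 2.60-fold with all arrays). Tap1 had entered the test through dying neurons alone. Both calls ended with a model-based background correction that also added an offset of 50 (normexp). The limma adjusted p was 0.519 for each, at the top of ranges of 0.0126 to 0.519 for Cd74 and 0.00172 to 0.519 for Tap1. The differences became 2.39 for Cd74 and 0.77 for Tap1. Here and below the background correction includes this offset, and the effects of the correction and the offset were not separated. The Cd74 call also ended with no filter on background (0.0631).

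Surviving neurons were compared with sham neurons to ask what the cells that stay intact beside them had gained or lost. Of the members, Tap1 passed: it rose by 2.16 (SE 0.45; 95% interval 1.12 to 3.20; limma adjusted p = 0.0199), at least 1.71-fold by the same bound. It entered the test through surviving neurons alone, being at background in sham neurons. Tap2 differed by 1.30 (SE 0.45; 0.27 to 2.33; 2.46-fold) and missed the threshold with a limma adjusted p of 0.0771. The 3 class II probes tested had positive differences with wide intervals that include 0: Cd74 1.85 (SE 1.21; -0.95 to 4.65), RT1-Da 1.98 (SE 1.52; -1.54 to 5.49) and RT1-Bb 0.46 (SE 0.57; -0.85 to 1.77), with limma adjusted p of 0.297, 0.371 and 0.580. The naive pair is not part of this comparison, but its spread, the widest of the 4 groups for these 3 class II probes, entered their SE. B2m probes differed by -0.96 to 0.32.

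Here 1 of 9 member probes tested passed, beside 18.9% of 26905 probes (6.82% were higher in surviving neurons, and 3241 probes were lower). Both surviving arrays lay above both sham arrays for 6 member probes, against 28.0% of all probes, and below them for 1, against 48.8%. The median difference was 0.46 over the member probes and -0.43 over all. Leaving out any 1 surviving or sham array ended the call for Tap1 (2.05 to 2.27). The background correction with its offset of 50 brought the Tap1 difference to 0.53 (limma adjusted p = 0.833, over a range of 0.00478 to 0.833 for the alternatives).

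Both comparisons with sham neurons depend on the scale. Scaling each array to its 75th percentile, to its quantiles, to the probes above background on all 8 arrays, or using the authors' value table moved the median of all probes by 0.61 to 0.97 for surviving and by 0.67 to 1.01 for dying minus sham. The share of calls that were higher in surviving neurons went from 36.2% to between 59.3% and 80.0%, and that higher in dying neurons from 34.2% to between 56.3% and 68.6%. Under these 4 scalings 2 to 4 member probes passed for surviving and 5 to 8 for dying minus sham. In surviving neurons Tap1 and Tap2 then passed under each of them, B2m A_44_P214040 under 2 and RT1-Bb under 1. In dying neurons Cd74, Tap1, RT1-Bb and B2m (A_43_P11442 and A_44_P214040) passed under each, Tap2 under 3, RT1-Da under 2 and B2m A_44_P535612 under 1. With the background correction and its offset of 50 no probe of the array passed in either comparison. The p values here rest only on the spread between arrays of the same group, pooled over all 4 groups, naive neurons included. The 2 dying and the 2 surviving arrays are described as biological replicates, each pooled from 3 or more injured rats. For array samples in general the study pooled neurons of 3 to 6 brains, and whether the 2 sham and the 2 naive arrays are separate pools is not given in the sources used here.

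**Figure D2:**
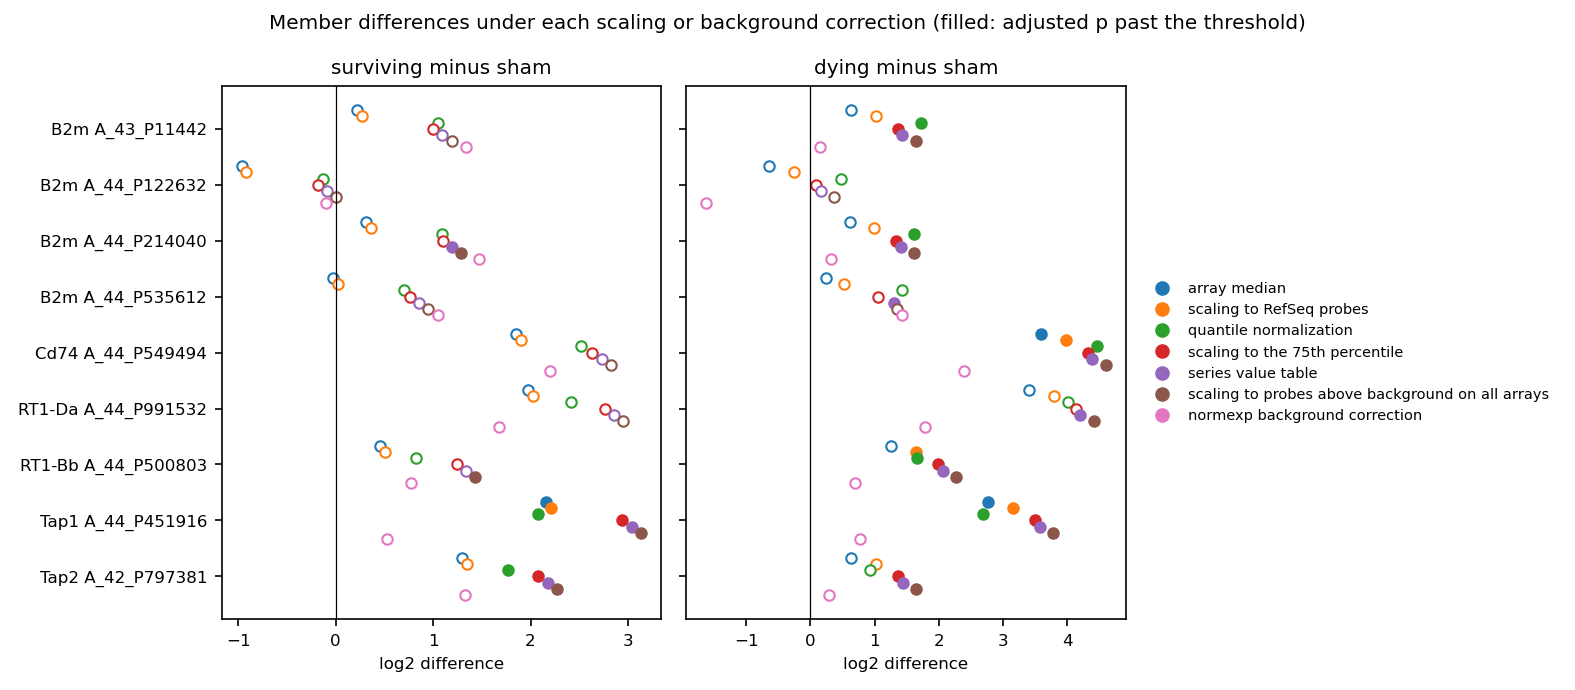
Differences of the member probes from sham neurons (log2), for surviving and for dying neurons, under 7 ways of scaling or correcting the arrays. Tap1, Tap2, Cd74, RT1-Da and RT1-Bb were above 0 under each of them, and B2m A_44_P122632 and A_44_P535612 changed sign.

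Surviving and dying neurons shared a slide, and their comparison bears on whether antigen presentation differs between neighbouring cells of unlike fate. No member passed. Cd74, RT1-Da and RT1-Bb had higher values in dying neurons, with surviving minus dying at -1.74 (SE 1.21; 95% interval -4.53 to 1.06), -1.43 (SE 1.52; -4.94 to 2.08) and -0.80 (SE 0.57; -2.11 to 0.52). Their limma adjusted p values were 0.439, 0.621 and 0.448. Tap1 leaned the same way at -0.61 (SE 0.45; -1.65 to 0.44; 0.469), and Tap2 the other way at 0.66 (SE 0.45; -0.38 to 1.70; 0.427). For each of these 5 probes the dying and surviving arrays did not overlap, but the intervals all include 0. The model-based background correction with its offset of 50 brought Cd74 to -0.19, RT1-Da to -0.10 (limma adjusted p = 0.953 and 0.956), RT1-Bb to 0.07, Tap1 to -0.25 and Tap2 to 1.04.

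Over all tested members, 8 of 9 probes were higher in dying neurons (55.6% of all probes tested were higher in surviving neurons) and 6 of the 8 without overlap, beside 21.7% of the 27391 probes tested, and 1 was higher in surviving neurons without overlap, beside 30.0%. A B2m probe among the 6 had a value on 1 dying array only. limma called 0 probes of the whole array (0.0%), with 5898 (21.5%) at an unadjusted p under 0.05 and 0 of them among the members. In a fit of these 4 arrays alone, without the naive and sham pairs, the SE was 0.51 for Cd74 and 0.55 for RT1-Da. In the fit of all 8 arrays it was 1.21 and 1.52. The fit of 4 arrays gave an unadjusted limma p of 0.0150 and 0.0417 and an adjusted p of 0.245 and 0.287. Without dying replicate 2, 6002 probes passed across the array, none of them a member.

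Sham and naive neurons were compared to see what the surgery itself brought. No member passed, and the naive pair was too far apart to place Cd74 or RT1-Da. Sham minus naive was 0.28 (SE 1.20) for Cd74, 1.13 (SE 1.50) for RT1-Da, 0.54 (SE 0.55) for RT1-Bb, 0.23 (SE 0.43) for Tap2 and 0.18 to 0.48 for the B2m probes, with limma adjusted p from 0.882 to 0.951. limma called 0 of 20676 probes (0.0%), with 997 (4.82%) at an unadjusted p under 0.05, none a member. The groups did not overlap for 3 of 8 member probes, all higher in sham neurons, beside 38.0% of all probes (and 4.95% that were higher in naive neurons), and Tap1 was not tested because neither group was above background. Cd74, Tap2 and 3 B2m probes changed sign under other scalings, and RT1-Da and RT1-Bb with the background correction. Without naive replicate 1 the differences for Cd74, RT1-Da and RT1-Bb were -1.89, -1.58 and -0.16. Within the slide of these 4 arrays the limma adjusted p ranged from 0.761 to 0.906.

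**Figure D3:**
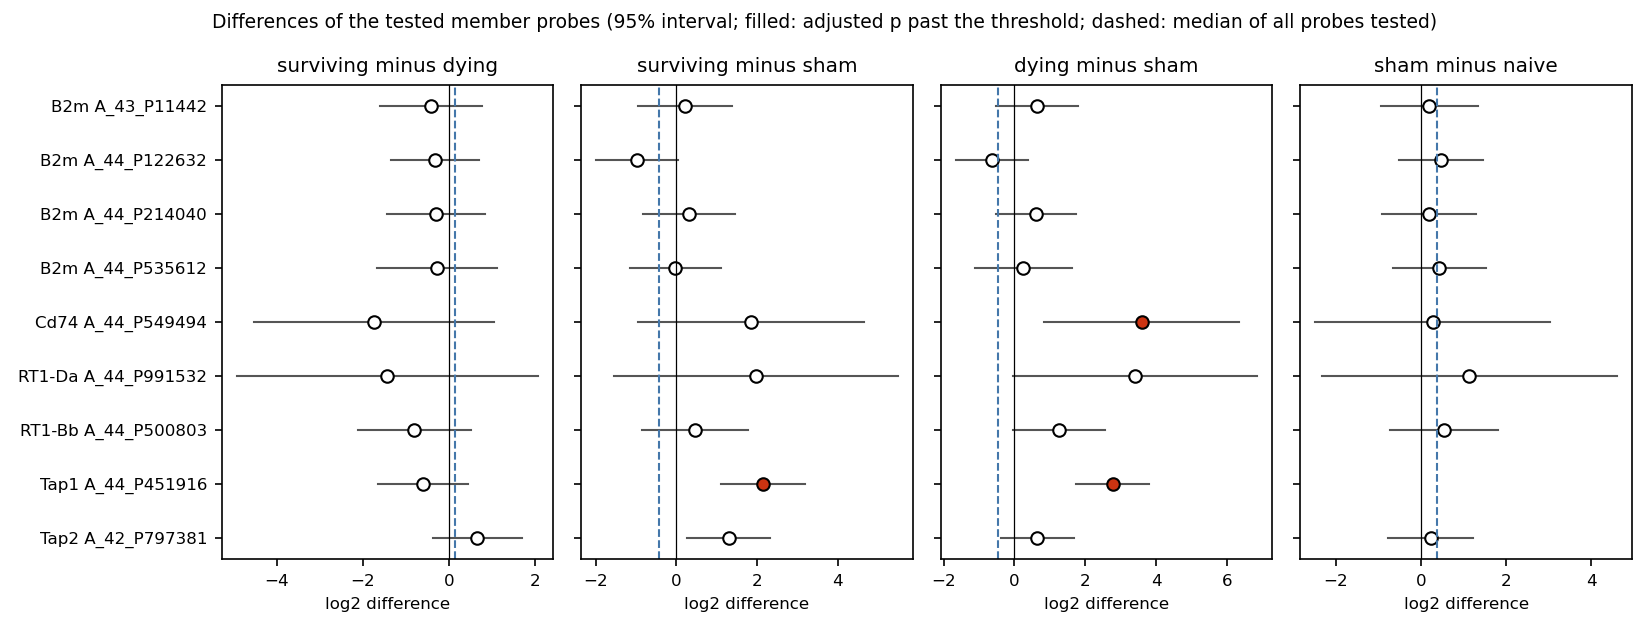
Differences of the tested member probes in the 4 comparisons (log2), with 95% intervals; filled symbols passed at an adjusted p under 0.05, and the dashed line is the median of all probes tested. Tap1 passed in surviving minus sham (2.16) and dying minus sham (2.77), and Cd74 in dying minus sham (3.59). Tap1 was at background in sham neurons, so its rises are shown only as at least 1.71-fold and at least 2.60-fold.

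Among other genes of the class I pathway some rose and some fell. A list of 45 other genes had 33 on the array with 42 probes, of which 37 were tested against sham neurons. In dying neurons, where 7 of the 37 were tested on the strength of 1 group, 4 probes rose and 6 fell, so that 10 of 37 passed beside 44.1% of all probes (15.1% higher in dying neurons), with a median of -0.51 beside -0.46 over all probes, while under the 4 scalings above 7 to 9 rose and 3 or 4 fell. With dying replicate 1, dying replicate 2, sham replicate 1 or sham replicate 2 left out, 1, 4, 1 and 3 rose and 3, 10, 2 and 3 fell. Those that rose were Psmb8 and Psmb9, catalytic subunits of the immunoproteasome that lie beside the Tap genes, Tapbpl, a peptide editor, and RT1-CE7, a class I heavy chain. Psmb8, Psmb9 and Tapbpl are named after their values were seen. Psmb8 stood at 3.70 and 4.01 in dying, 2.84 and 2.89 in surviving, 1.72 and 0.65 in sham, and 0.84 and 0.60 in naive neurons. Like Tap1, it was higher on all 4 arrays of injured animals than on the other 4. It rose by 2.67 in dying neurons (limma adjusted p = 0.00525) and missed the threshold in surviving neurons at 1.68 (0.0501). Psmb9 rose by 2.32 in dying neurons (limma adjusted p = 0.0115, and 0.0112 to 0.0981 with an array left out, being 0.0531 without dying replicate 1 and 0.0981 without sham replicate 1) and differed by 1.50 in surviving neurons (0.0859). Tapbpl rose at least 3.01-fold in dying neurons (limma adjusted p = 0.0145, and 0.0238 to 0.0996 with an array left out, being 0.0809 without dying replicate 1 and 0.0996 without sham replicate 1) and at least 2.86-fold in surviving neurons (0.0345, and 0.109 to 0.202 with an array left out).

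Class I heavy chains did not share one direction. RT1-CE7 rose at least 1.70-fold in dying neurons (limma adjusted p = 0.0452), a call that ended without any 1 array (0.0502 to 0.181). Single probes of RT1-Cl, RT1-S3, RT1-CE4, RT1-Aw2 and RT1-M3 fell, with differences of -4.46, -2.98, -1.96, -1.65 and -1.31 and limma adjusted p of 0.00363, 0.0211, 0.0101, 0.0321 and 0.0351. For RT1-Cl, RT1-S3, RT1-CE4 and RT1-Aw2 other probes of the same gene did not pass, with differences of -0.60, -0.41, -0.39 and -2.66 to -0.32. RT1-Cl was not well above background on dying replicate 1, nor was the RT1-Aw2 probe at -2.66, so that the size of these 2 differences is uncertain, and RT1-Cl was tested on the strength of sham neurons alone. Under the alternatives other than a left-out array, each of these calls ended in some setting. There the differences came down to -1.67 for RT1-Cl, -1.97 for RT1-S3, -0.96 for RT1-CE4, -0.64 for RT1-Aw2 and -0.12 for RT1-M3. The RT1 heavy chains are a family of similar sequences, and cross-hybridization among them was not tested. Among these falls, RT1-Cl passed without each array in turn (limma adjusted p up to 0.0401). The calls ended without sham replicate 1 for RT1-S3 (0.0978), RT1-CE4 (0.0826), RT1-Aw2 (0.236) and RT1-M3 (0.203), without sham replicate 2 for RT1-S3 (0.0885), RT1-CE4 (0.0599) and RT1-M3 (0.112), without dying replicate 1 for RT1-S3 (0.0933), RT1-Aw2 (0.0795) and RT1-M3 (0.0615), and without dying replicate 2 for RT1-Aw2 (0.0616) and RT1-M3 (0.0531).

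Hfe, a class I-like protein that pairs with B2m and takes part in iron uptake, read 3.52 and 4.09 in dying, 5.65 and 5.21 in surviving, 7.76 and 7.45 in sham, and 6.77 and 7.15 in naive neurons. It fell by 3.81 in dying neurons (limma adjusted p = 0.00153) and by 2.18 in surviving neurons (0.0203), and was lower on all 4 arrays of injured animals than on the others. The call in surviving neurons ended with any 1 array left out (-2.40 to -1.96). Under other alternatives that difference came down to -1.14, with a limma adjusted p of up to 0.93. Against sham neurons, surviving neurons had 1 list probe that rose (Tapbpl) and 2 that fell (Hfe and RT1-CE4, the latter at -2.00 with a limma adjusted p of 0.0225, and 0.118 to 0.163 with an array left out), which is 3 of 37 beside 18.9% of all probes (6.82% higher in surviving neurons), with a median of -0.29 beside -0.43. With any 1 array left out none of the list probes passed in surviving neurons, while under the 4 scalings above 3 to 7 rose and 0 to 2 fell. Calr, the chaperone calreticulin, differed by -1.48 in dying neurons (0.0591). limma called 0 of 37 list probes between surviving and dying neurons, with 4 at an unadjusted p under 0.05 (and 6 higher in surviving and 1 in dying neurons without dying replicate 2), and 0 of 34 between sham and naive neurons, also with 4 at that p.

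Of 18 other class II genes, 12 were on the array with 18 probes. In dying neurons 1 of 11 tested probes rose, beside 15.1% of all probes, and none fell, with a median of -0.24 beside -0.46, while 3 or 4 rose under the 4 scalings above. With dying replicate 1 or 2 or sham replicate 1 or 2 left out, 1, 2, 0 and 1 rose and 0, 2, 0 and 0 fell. The probe that rose was for Ifi30, a thiol reductase that unfolds antigens in the endosome, with 8.12 and 6.37 in dying, 5.45 and 4.99 in surviving, 4.05 and 4.07 in sham, and 3.68 and 4.46 in naive neurons. Like Cd74, it was highest in dying and next highest in surviving neurons, and it rose by 3.18 (SE 0.63; 9.08-fold; limma adjusted p = 0.00689, and 0.00212 to 0.0549 with an array left out, the highest without sham replicate 1). Surviving minus dying was -2.03 for Ifi30 (limma adjusted p = 0.145). RT1-Db1, the beta chain that pairs with RT1-Da, had 3.65 and 3.92 in dying, 3.44 and 3.09 in surviving, and 3.19 and 1.59 in sham neurons with its brightest probe, a difference of 1.40 between dying and sham (0.0843), and a second probe well above background on every array differed by 0.62 with overlapping arrays (0.567). Ctss, a protease that trims Cd74, fell in surviving neurons with both probes, by 1.97 and 2.43 (limma adjusted p = 0.0375 and 0.0294), calls that ended without any 1 array (0.0807 to 0.264) and under the 4 scalings above. In dying neurons the 2 probes differed by 0.15 and -0.76 (0.828 and 0.304). Those were the 2 calls among 12 tested probes in surviving neurons, beside 3241 falls among 26905 probes over the array (median -0.27 beside -0.43), where 0 to 2 other probes rose under the 4 scalings. Probes for RT1-DOb, for Ciita, the master regulator of class II transcription, and for the costimulators Cd80 and Cd86 were well above background on no array, and Ciita, Cd80 and Cd86 are named after their values were seen. limma called 0 of 12 list probes between surviving and dying neurons, with 3 at an unadjusted p under 0.05 (and 3 higher in dying neurons without dying replicate 2), and 0 of 11 between sham and naive neurons, with 0.

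The interferon list had 26 of 31 genes on the array with 32 probes, and 18 were tested against sham neurons. In surviving neurons 3 rose, beside 6.82% of all probes, and none fell (median 0.36 beside -0.43), and in dying neurons 4 rose, beside 15.1%, and 2 fell (median -0.12 beside -0.46). On the strength of 1 group 4 and 5 of the 18 were tested. All genes of this paragraph but Jak2 are named after their values were seen. Gbp2, an interferon-induced guanylate-binding protein, stood at 6.37 and 6.68 in dying, 6.08 and 5.34 in surviving, 3.01 and 2.52 in sham, and 1.82 and 3.22 in naive neurons. It rose by 3.76 in dying (limma adjusted p = 0.00313) and by 2.94 in surviving neurons (0.0173, and 0.101 to 0.122 with an array left out), the same division between injured and uninjured animals as for Tap1. Irf1, a transcription factor of the interferon response, was at background in sham and naive neurons and rose at least 1.71-fold in dying (limma adjusted p = 0.0257, and 0.0121 to 0.186 with an array left out, being 0.129 without dying replicate 1 and 0.186 without sham replicate 1) and at least 1.97-fold in surviving neurons (0.0394, and 0.0844 to 0.254 with an array left out). Isg15 rose by 3.77 in dying (limma adjusted p = 0.00709) and by 3.14 in surviving neurons (0.0304, and 0.0691 to 0.220 with an array left out). Oas1 rose in dying neurons by 2.69 (limma adjusted p = 0.0182, with 0.0153 to 0.106 over the arrays left out, 0.0599 without dying replicate 2, 0.106 without sham replicate 1 and 0.0703 without sham replicate 2). Jak2, a kinase of interferon receptors, fell by 3.14 in dying neurons (0.0252), but by 1.64 without dying replicate 1 (0.0932), and its adjusted p was 0.142 and 0.0656 without sham replicate 1 and 2. The other fall was Oas1i, at -2.29 (0.0445, and 0.00327 to 0.196 with an array left out), a size that is uncertain because the probe was not well above background on dying replicate 1 and was tested on the strength of sham neurons alone. Under the 4 scalings above 6 list probes rose and none fell in dying neurons. With dying replicate 1, dying replicate 2, sham replicate 1 or sham replicate 2 left out, 4, 4, 2 and 3 rose and 0, 4, 0 and 0 fell, and in surviving neurons 0 rose with any 1 array left out and 3 to 7 under the 4 scalings. The probe for interferon gamma itself was well above background on no array. limma called 0 of 19 list probes between surviving and dying neurons, with 3 at an unadjusted p under 0.05 (and 3 higher in surviving neurons without dying replicate 2), and 0 of 17 between sham and naive neurons, with 0.

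Many markers of microglia and macrophages rose in dying neurons, as Cd74 did. Of 25 such genes, 23 were on the array, and their summed signal in units of the array median (22 genes) was 3857 and 2108 in dying, 804.1 and 855.4 in surviving, 729.8 and 600.4 in sham, and 356.9 and 668.5 in naive neurons. Cd74 and RT1-Da were likewise highest on the dying arrays and lowest on naive replicate 1. The highest signal came from Fcgr3, and of the 6 defining markers Cx3cr1 and Itgam were at background on naive and sham arrays and Cx3cr1 on dying replicate 1. In dying neurons 15 of 22 tested probes rose, beside 15.1% of all probes, and none fell, with a median of 1.95. Examples are Tyrobp, which rose by 3.61 (limma adjusted p = 0.00289), Trem2 by 3.51 (0.00573), C1qb (8.58-fold, 0.00509) and C1qa by 1.89 (0.0187). The first 3 calls were kept without each array in turn, while that for C1qa ended without dying replicate 1 (0.0685), sham replicate 1 (0.0974) and sham replicate 2 (0.0985). Second probes rose by 1.69 for C1qa (0.0364, and 0.0689 to 0.154 with an array left out) and by 1.63 for Tyrobp (0.0478, a call kept only without dying replicate 2). The count of 15 became 11 and 12 without dying replicate 1 and 2, 5 without sham replicate 1 or sham replicate 2, and 15 or 16 under the 4 scalings above. Of the 6 defining markers only C1qa passed in dying neurons. Aif1 differed by -0.14 and P2ry12 by 0.62 (limma adjusted p = 0.830 and 0.564). Csf1r (A_44_P257582) had means of 1.52 in dying and 1.86 in sham neurons, with overlapping arrays. At background in sham neurons were Cx3cr1 (-1.91 in dying against -1.12), Itgam (1.25 against -0.36) and a second Csf1r probe (-0.99 against -2.25). The defining markers thus did not move as one. In surviving neurons 2 of 26 passed upward (4 of the 26 tested on the strength of 1 group), beside 6.82% of all probes, against 0 with any 1 array left out and 6 to 9 under the 4 scalings. They were Lyz2, named after its values were seen, and Csf1r with a probe at background in sham neurons (A_44_P226109; limma adjusted p = 0.0457, and 0.159 to 0.233 with an array left out). The mean of that probe in surviving neurons was not above the bound set by the sham arrays, so that no rise is shown for it, and the other Csf1r probe, well above background on every array, differed by -0.54 (0.521). limma called 0 of 25 between surviving and dying neurons, with 11 at an unadjusted p under 0.05, all higher in dying neurons (and 5 higher in dying and 1 in surviving neurons without dying replicate 2), and 0 of 22 between sham and naive neurons, with 0. The part of these cells in the values of Cd74, RT1-Da and RT1-Bb was not tested.

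**Figure D4:**
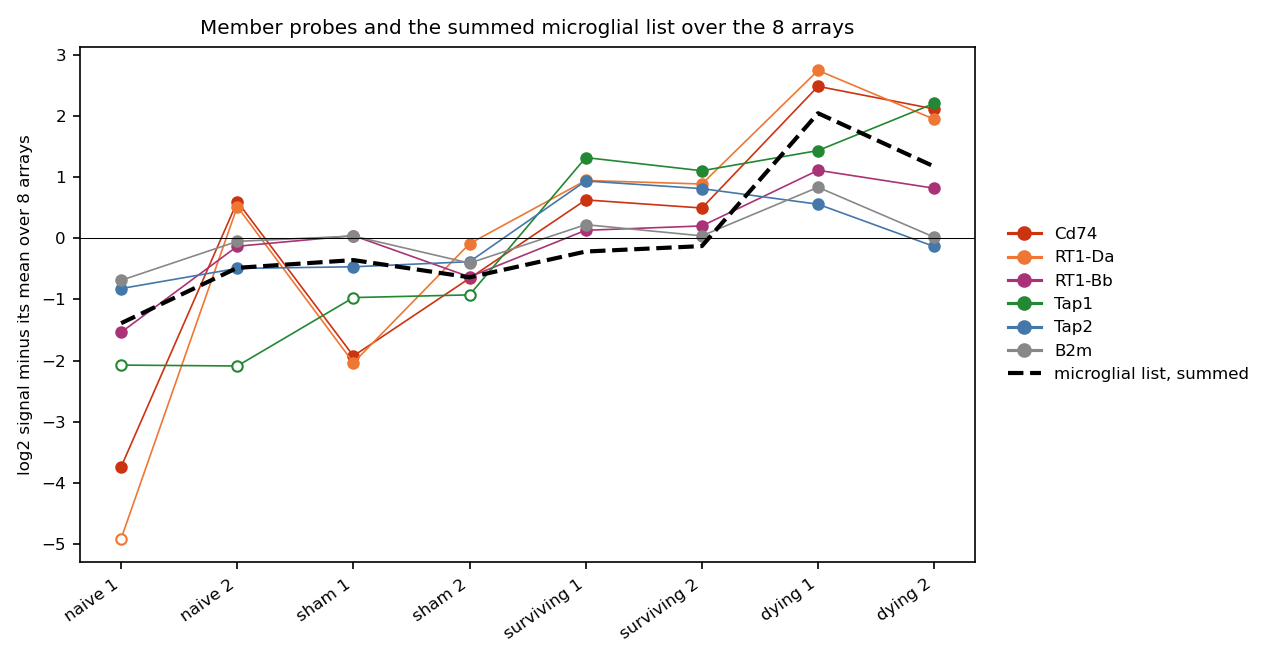
Levels of Cd74, RT1-Da, RT1-Bb, Tap1, Tap2 and B2m on each array, as log2 minus the gene's mean over the 8 arrays, with the summed microglial markers as a dashed line. Cd74 and RT1-Da, like the marker sum, are highest on the dying arrays and lowest on naive replicate 1, and Tap2 is highest on the surviving arrays.

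Other cells that can carry MHC molecules include lymphocytes, dendritic cells and endothelium. The lymphocyte and dendritic cell list (16 of 19 genes on the array) summed to 75.8 and 36.9 in dying, 24.5 and 28.6 in surviving, 14.5 and 13.3 in sham, and 15.2 and 11.8 in naive neurons, with the highest signal from Cd3d, Cd3e at background on all arrays but naive replicate 2, and Flt3 on naive replicate 2 and both sham arrays. Cd3d, part of the T cell receptor complex, rose by 1.93 in dying neurons (limma adjusted p = 0.0131, with 0.0837 and 0.0793 without sham replicate 1 and 2). In dying neurons 7 of 10 probes passed upward, beside 15.1% of all probes, 8 of the 10 being tested on the strength of dying neurons alone. In surviving neurons 3 of 8 did so, beside 6.82%, 6 of the 8 being tested on the strength of surviving neurons alone. For probes tested in this way the filter itself favoured a rise, so that these counts are not evidence of a rise of the list. At background in sham neurons were 6 of the 7 and all 3. With the bound used for Tap1, 1 of the 6 had almost no rise to show, and among the 3 in surviving neurons 1 had none and another at least 1.08-fold. With dying replicate 1 or 2 or sham replicate 1 or 2 left out, 5, 8, 3 and 3 passed upward in dying neurons, and 0 in surviving neurons with any 1 array left out. Under the 4 scalings 6 or 8 did so in dying and 5 in surviving neurons. The endothelial list (11 of 12 genes, 10 in the sum) summed to 266.7 and 140.1 in dying, 66.3 and 64.2 in surviving, 97.6 and 80.2 in sham, and 58.4 and 89.4 in naive neurons, with the highest signal from Kdr, Vwf or Cldn5, Tek at background on all arrays and Cdh5 on naive replicate 2 and both sham arrays. Of its 9 tested probes 4 rose in dying neurons and 1 in surviving neurons, beside the same shares of all probes, while with the same arrays left out 2, 4, 0 and 2 rose in dying neurons, and with any 1 array left out 0 rose in surviving neurons. Of the 9, 5 were tested on the strength of the injured group alone, which favoured a rise in the same way. At background in sham neurons were 3 of the 4 that rose in dying neurons and the 1 in surviving neurons. Among them, Icam2 had a mean of -0.12 in dying neurons. The lowest well-above-background values of the sham arrays were -0.30 and -0.15, so that almost no rise is shown for it. Under the 4 scalings 5 or 6 and 1 or 2 rose. Vwf rose by 1.94 in dying neurons (limma adjusted p = 0.0186, with 0.0769 without dying replicate 1, 0.0796 without sham replicate 1 and 0.114 without sham replicate 2). Both sums were highest on dying replicate 1, where Cd74 and RT1-Da were also highest. The microglial sum (3857) and B2m probes A_43_P11442 (8.86) and A_44_P214040 (9.64) were highest there too. The median signal of that array was 19.2, against 52.6 on dying replicate 2. The part of lymphocytes, dendritic cells and endothelium in the members' values was not tested.

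Calls for markers of neurons, oligodendrocytes and astrocytes were mostly falls, as they were over the whole array. There 7426 of 25623 probes fell in dying and 3241 of 26905 in surviving neurons. In dying neurons the median difference from sham was -2.16 for neuronal, -1.61 for oligodendrocyte and -0.97 for astrocyte probes, beside -0.46 over all probes. In the same order 15 of 15, 12 of 13 and 8 of 11 probes were lower, while 42.6% of all probes were higher. In surviving neurons the medians were -0.27, -1.55 and -0.9976, beside -0.43, with 9 of 14, 13 of 13 and 8 of 11 probes lower. Neuronal markers (12 of 15 genes, 11 in the sum, with the highest signal from Nrgn) summed to 5404 and 5370.2 in dying, 8803 and 8459 in surviving, 13998 and 12157 in sham, and 7040.3 and 11162 in naive neurons. Snap25, Camk2a and Slc17a7 stood well above background throughout and Grik4 except on dying replicate 1. Of 15 neuronal probes 6 fell in dying neurons, and of 14 probes 2 fell in surviving neurons, against 4 or 5 and 0 under the 4 scalings above. Of 13 probes for oligodendrocyte markers 6 fell in dying and 4 in surviving neurons, against 2 or 3 in each under those scalings. Astrocyte markers (9 of 10 genes, with the highest signal from Slc1a3) summed to 1140 and 465.0 in dying, 434.3 and 481.8 in surviving, 1343 and 912.1 in sham, and 808.4 and 913.4 in naive neurons, with 1 of 11 probes up and 4 down in dying neurons and 1 up and 3 down in surviving neurons, against 2 or 3 and 1 or 2 down under those scalings. In dying neurons 4 of the neuronal, 1 of the oligodendrocyte and 3 of the astrocyte probes were tested on the strength of 1 group, and in surviving neurons 0, 0 and 3. The defining astrocyte markers on the array were well above background on every array. With dying replicate 1 or 2 or sham replicate 1 or 2 left out, 3, 10, 2 and 2 neuronal, 5, 5, 2 and 3 oligodendrocyte and 3, 4, 1 and 4 astrocyte probes fell in dying neurons. In surviving neurons 0 neuronal and at most 1 of the oligodendrocyte or astrocyte probes fell with any 1 array left out. On the surviving arrays, where Tap1 and Tap2 stood above their sham levels, the neuronal, astrocyte and endothelial sums were below those of the sham arrays. The 13 oligodendrocyte probes tested were all lower in surviving than in sham neurons, while the microglial and lymphocyte sums were higher. All of these are relative to the array median. The sums were not computed under the 4 other scalings, which moved the median of surviving minus sham over all probes by 0.61 to 0.97. Whether the sums keep these directions there was not tested. Between surviving and dying neurons, 4 of 14 neuronal, 0 of 13 oligodendrocyte, 1 of 10 astrocyte, 2 of 10 lymphocyte and 3 of 9 endothelial probes had an unadjusted limma p under 0.05. The share over all probes was 21.5%. After adjustment limma called 0 probes of these lists. Without dying replicate 2 it called 7, 1, 1, 0 and 0 higher in surviving neurons and 0, 1, 0, 2 and 2 higher in dying neurons. It also called 0 of them between sham and naive neurons, with 1, 0, 1, 0 and 0.

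**Figure D5:**
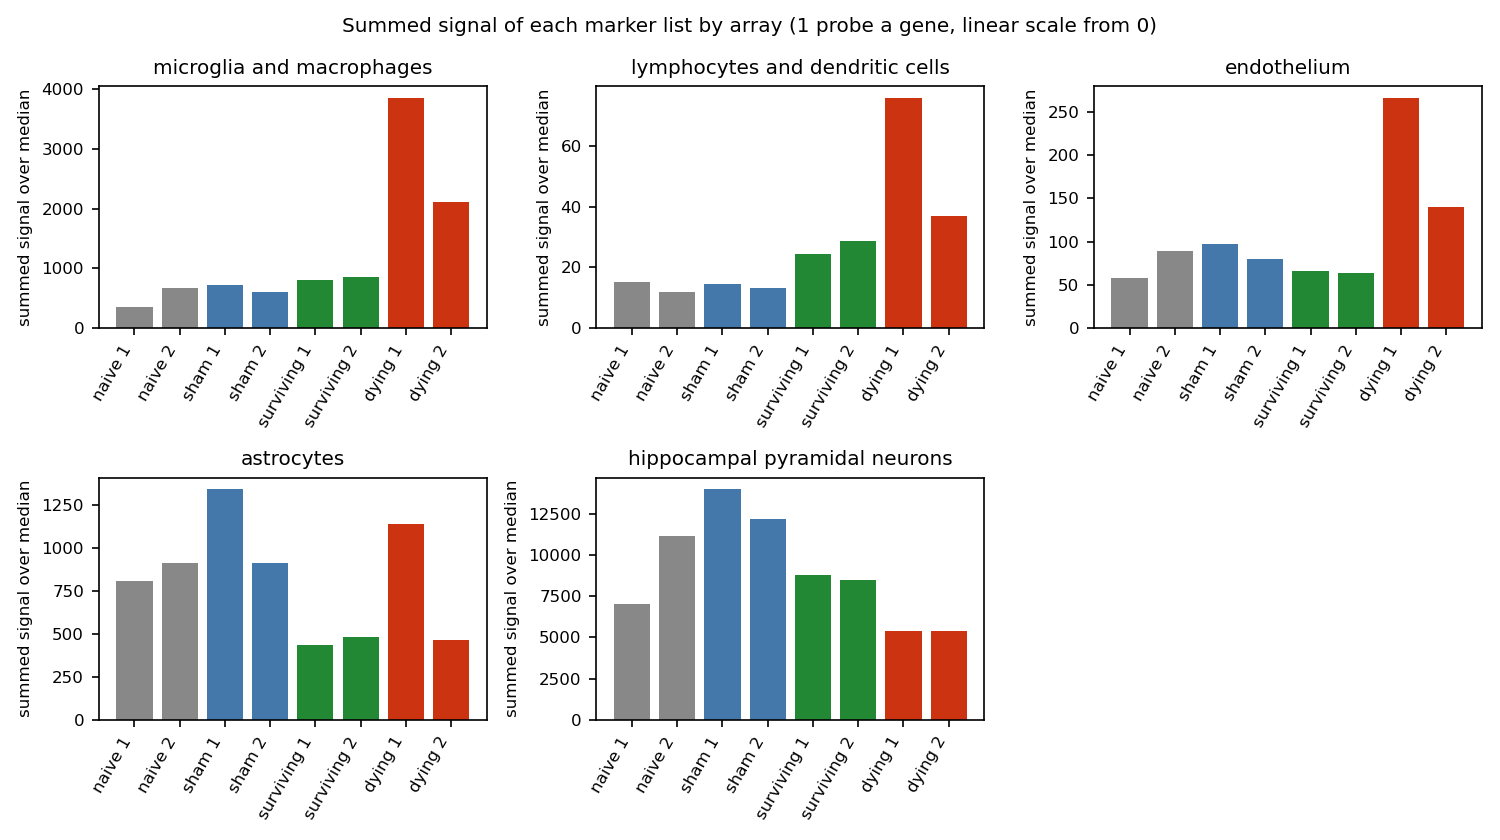
Summed signal of 5 lists of cell type markers on each array, in units of the array median. With this scaling, microglial, lymphocyte and endothelial sums are highest on the dying arrays (3857, 75.8 and 266.7 on replicate 1), and neuronal sums are lowest on the same 2 arrays. Sums under other scalings were not computed.

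Genes with the most similar pattern over the 8 arrays were sought among 9159 probes, by the root mean square difference after each probe's mean was subtracted. For Cd74 these included Cyba (0.608) and P2ry6 (0.721). Cyba, a subunit of the phagocyte NADPH oxidase, read 7.50 and 6.67 in dying, 4.63 and 4.70 in surviving, 3.12 and 4.14 in sham, and 2.06 and 4.41 in naive neurons, which repeats the wide naive pair of Cd74. For RT1-Bb they were Plk1 (0.150), Spbc24 (0.186) and Ankrd49 (0.219), and for Tap2 Sh3bp1 (0.154), Prmt6 (0.176) and Pmm2 (0.180). The distances for Cd74 were larger, as were the differences between its arrays. No likeness is given for B2m, RT1-Da, RT1-Ba and Tap1, whose brightest probe was not marked well above background on all 8 arrays, for B2m because 1 array had no usable spot.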

How the data were processed

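RNA of pooled, laser-captured CA3 neurons was amplified in 2 rounds, labelled and hybridized to single-colour Agilent rat arrays. The deposited array files give, per spot, the processed signal as an intensity, subtracted for background and detrended within the array by the authors with Feature Extraction 9.1.3.1, and other marks of 0 or 1 for spots that are well above background, saturated or not uniform. The authors' series table gives a signal that equals the scanner's processed signal over 1 constant per array (91.4 to 205.2), on a linear scale. Here each intensity was divided by its array's median, set to at least 0.01 and log2-transformed (Python 3.11.15), with spots marked non-uniform left out and spots of 1 probe averaged. The 4 groups of 2 arrays were fitted in 1 linear model with limma 3.58.1 (R 4.3.3), two-sided, with Benjamini-Hochberg adjustment over all probes tested and a threshold of 0.05. A probe entered a test if at least 1 of the 2 groups had both of its arrays marked well above background. A check of the fit on simulated data is not reported here, and no result rests on it. No spot was saturated. Alternatives were other scalings, the series table, normexp background correction with an added offset of 50, a floor of 0.1, non-uniform spots kept, no filter, a filter on all 4 arrays, the 2 groups alone, a replicate block, and each array left out. Genes were matched by name, and 10 of 13 member probes had an accession in the RefSeq table. Named genes were all members, all RT1 genes of the lists, the defining cell type markers, from each list the 3 genes with the largest difference between surviving and dying neurons among probes above background on those 4 arrays, and the 3 genes most like each member; a few of these are not reported here. The members and the lists were chosen with earlier results of these data known. The number of arrays limits the precision.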

Additional observations from a re-analysis of the deposited data

How the results depend on the processing

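The 16 alternatives of a comparison were tallied over the tested member probes and the list probes that had passed. For surviving minus dying neurons the list genes with the largest differences were used. Direction and side of the threshold were kept in 1767 values. The direction was kept but the call lost in 433, a call was gained in 48 and the direction changed in 51. These list probes were thus chosen for having passed or for their differences. Depth of signal limits RT1-Ba and the second probes of RT1-Da and RT1-Bb, which could not be tested, and Tap1, which has no value when all 4 arrays must be above background. With an array left out, the lone array of its group is assumed to vary like the others. The causes of the changes below were not tested.

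For surviving minus dying neurons, limma called 0 probes and 5898 at an unadjusted p under 0.05. It called 2 with the series table and 0 to 6002 with an array left out, the 6002 (3245 higher in surviving and 2757 in dying neurons) without dying replicate 2. For surviving minus sham neurons, 5076 probes passed, against 0 with normexp, 3109 with a filter on all 4 arrays, 12167 with the 2 groups alone and 253 to 513 with an array left out. For dying minus sham neurons, 11289 passed, against 0 with normexp, 7156 with the filter on all 4 arrays and 3050.0 to 13437 with an array left out (3050.0 without sham replicate 1, 5174 without sham replicate 2). For sham minus naive neurons, 0 passed (997 unadjusted), against 1 with quantile normalization and 118 with the 2 groups alone.

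The number of member probes that passed for surviving minus sham was 1, against 2 with the 75th percentile, 2 with quantiles, 0 with normexp, 3 with the series table, 4 with probes above background on all arrays, 0 with the filter on all 4 arrays, 3 with the 2 groups alone and 0 to 0 with an array left out. For dying minus sham it was 2, against 6, 5, 0, 8 and 7 with the first 5 of these, 3 with RefSeq probes, 1 with no filter, 1 with the filter on all 4 arrays, 3 with the 2 groups alone and 1 to 1 with an array left out. In the other comparisons it was 0 throughout.

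A fit with the replicate number as a block gave 0, 3488, 10406 and 0 probes for surviving minus dying, surviving minus sham, dying minus sham and sham minus naive, with 1 and 2 member probes in the comparisons with sham. The sources do not say that replicate numbers pair arrays, and the same-number differences from the group means correlated over 15250 probes by -0.194 to 0.0715 between groups, which gave no sign of pairing.

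Scaling to RefSeq probes moved the median of all probes by -0.34, 0.05, 0.39 and -0.16 in the same order, normexp by 0.21, 0.52, 0.18 and 0.22, and the other scalings moved sham minus naive by -0.42 to -0.29. For surviving minus dying, normexp reversed B2m A_43_P11442 (1.19), A_44_P122632 (1.52) and A_44_P214040 (1.14), RT1-Bb (0.0725), Cd3d (0.34), Gjb6 (0.0631) and Rfxank (0.35). For surviving minus sham, B2m A_44_P122632 turned to 0.0088 with probes above background on all arrays, and B2m A_44_P535612 to 0.76 with the 75th percentile, 0.70 with quantiles, 1.05 with normexp, 0.86 with the series table, 0.95 with probes above background and 0.0275 with RefSeq probes. For dying minus sham, B2m A_44_P122632 turned to 0.0877, 0.48, 0.16 and 0.37 with the 75th percentile, quantiles, the series table and probes above background. For sham minus naive, in the same order, B2m A_43_P11442 turned to -0.10, -0.28, -0.14 and -0.23 and A_44_P214040 to -0.10, -0.28, -0.14 and -0.24. B2m A_44_P535612 turned to -0.0006 with quantiles. Cd74 turned to -0.0087 with the 75th percentile, -0.33 with normexp, -0.0462 with the series table and -0.14 with probes above background, Tap2 to -0.0552 with the 75th percentile, -0.093 with the series table and -0.19 with probes above background, and with normexp RT1-Da to -0.26 and RT1-Bb to -0.0109.

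With an array left out, surviving minus dying ranged over -0.70 to 0.11 for B2m A_44_P214040, -3.74 to 0.24 for Gjb6 and -0.47 to 2.05 for Gfap. Surviving minus sham ranged over -0.0111 to 0.44 for B2m A_43_P11442 and -0.37 to 0.33 for A_44_P535612, and dying minus sham over -0.10 to 0.60 for A_44_P535612. Sham minus naive ranged over -0.18 to 0.57 for B2m A_43_P11442, -0.13 to 0.50 for A_44_P214040, -1.89 to 2.45 for Cd74, -1.58 to 3.85 for RT1-Da and -0.16 to 1.24 for RT1-Bb.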
